A study of Mus musculus with 6 samples.

Results

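The synaptic vesicle genes described here are 9 of the 33696 genes in the deposited gene table: Snap25, Syt1, Syp, Stx1a, Vamp2, Svop, Sv2a, Cplx2 and Slc17a7. Each was found by its symbol, and each symbol matched 1 row of that table. The genes were measured by droplet single-cell RNA sequencing (10x 3' chemistry, in which each captured transcript carries a unique molecular identifier, UMI) in 6 mouse libraries labelled as brain cells. The groups, with 2 libraries each, were TRPM2 Mg KO mice given bilirubin, WT mice given bilirubin and WT mice given vehicle. The labels give no dose, age, sex or brain region. They do not say which cells the Mg KO affects, nor whether the libraries of a group came from separate animals, so p-values measure the spread between libraries. Knockout mice given vehicle were not analysed here, so knockout and WT with the same treatment were compared only under bilirubin.

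A nerve terminal stores neurotransmitter in small vesicles and releases it when calcium enters. Vamp2 on the vesicle and Snap25 and Stx1a on the plasma membrane zip together into the SNARE complex that fuses the membranes. Syt1 is the calcium sensor that triggers this step, and Cplx2 encodes complexin 2, which holds and primes the assembled complex. Syp, Sv2a and Svop are membrane proteins of the vesicle, and Slc17a7 encodes VGLUT1, the transporter that fills vesicles with glutamate in many cortical and hippocampal excitatory neurons.

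Upstream sequences of 6 of the 9 members were available from RefSeq (GRCm38.p6), as 7 windows of 250 bases that end at a gene's start. In GENCODE transcripts of the gene, bases just after that start were found for the other windows, but not for those of Slc17a7 and Cplx2. The windows are shown because the members are described together below, and 4 are printed: those of the calcium sensor, the glutamate transporter and a pair of vesicle membrane proteins. Capitals mark GGGCGG, the GC box, on either strand, with overlapping matches counted.
Syt1, chr10:109010976-109011225, minus strand: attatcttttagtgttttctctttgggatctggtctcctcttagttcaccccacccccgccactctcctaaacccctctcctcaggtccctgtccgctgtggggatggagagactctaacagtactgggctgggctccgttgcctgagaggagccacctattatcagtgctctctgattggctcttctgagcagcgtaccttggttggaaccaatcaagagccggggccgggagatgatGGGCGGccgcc
Slc17a7, chr7:45163671-45163920, plus strand: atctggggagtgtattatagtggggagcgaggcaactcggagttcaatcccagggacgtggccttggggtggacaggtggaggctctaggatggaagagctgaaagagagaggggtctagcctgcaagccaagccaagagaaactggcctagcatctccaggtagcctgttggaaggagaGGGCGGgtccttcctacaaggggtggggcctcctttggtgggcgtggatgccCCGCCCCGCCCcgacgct
Syp, chrX:7638330-7638579, plus strand: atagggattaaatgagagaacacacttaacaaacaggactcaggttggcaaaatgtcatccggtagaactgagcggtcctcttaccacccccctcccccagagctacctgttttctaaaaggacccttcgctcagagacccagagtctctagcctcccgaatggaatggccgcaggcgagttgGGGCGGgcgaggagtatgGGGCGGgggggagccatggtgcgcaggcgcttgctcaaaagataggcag
Sv2a, chr3:96180977-96181226, plus strand: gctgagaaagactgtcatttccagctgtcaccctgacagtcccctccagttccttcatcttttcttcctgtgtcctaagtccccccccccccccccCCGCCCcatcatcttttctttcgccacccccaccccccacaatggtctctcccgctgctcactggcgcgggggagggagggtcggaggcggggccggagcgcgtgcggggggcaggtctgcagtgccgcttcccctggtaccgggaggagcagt
The GC box was found in 5 of the 7 member windows, with 3 matches in the Slc17a7 window, 2 in the Syp window and 1 each in the Sv2a window, the Stx1a window and the upstream Syt1 window. The Cplx2 window and the second Syt1 window held none. Of all 32851 windows of the same length, 32.7% held it. CCAAT was found only in the upstream Syt1 window, at 2 places, against 33.9% of all windows. TATAAA, TGACGTCA, the NRF1 motif and TCAGCACC, each searched on both strands, were in none of the 7, and in 12.4%, 1.55%, 0.782% and 1.32% of all windows. The members' windows held 42.8% to 66.0% G and C, against a median of 52.4% over all windows. These matches describe letters in a window and show no binding.

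The libraries held 95014 barcodes, of which 79765 were kept. A pair of libraries stood apart. TRPM2 Mg KO bilirubin 2 had 3997 kept barcodes, the fewest, and WT bilirubin 2 had a low median mitochondrial share, 0.657%, against 7.24% in the other WT bilirubin library. The mitochondrial share was 5.59% and 3.80% in knockout libraries and 1.04% and 0.835% in vehicle libraries. Pairs of libraries shared 12 to 144 barcode sequences. Trpm2, the gene named in the knockout, had 6.47 and 4.47 CPM (UMIs per 1000000 UMIs of the library or class) in whole knockout libraries, 5.16 and 7.90 in WT bilirubin libraries and 11.4 and 6.28 in vehicle libraries. A 3' tag outside the deleted part does not check a knockout.

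Barcodes were assigned to classes by marker genes that include none of the 9 members, and class names below mean barcodes that passed such a gate. Neuron-like barcodes numbered 532 and 29 in knockout libraries, 347 and 705 in WT bilirubin libraries and 1003 and 923 in vehicle libraries, from 0.726% to 8.82% of kept barcodes. Their 12 general neuron markers summed to 73.2 and 67.9 UMIs per 10000 in knockout libraries, 79.0 and 103.5 in WT bilirubin libraries and 66.1 and 67.7 in vehicle libraries. Choroid plexus markers summed to 118.6 and 93.3, to 159.1 and 126.3, and to 43.2 and 145.7 UMIs per 10000 in the same barcodes, in the same order of groups. Choroid plexus markers were above the neuron markers there in all libraries except WT vehicle 1. Microglia markers in these barcodes summed to 29.4 and 36.5 UMIs per 10000 in knockout libraries, 36.5 and 13.9 in WT bilirubin libraries and 31.3 and 32.4 in vehicle libraries. The part of these transcripts in the members' levels was not tested. From 31.5% to 62.4% of kept barcodes passed no gate. Knockout library 2 held only 29 neuron-like barcodes, and its values below rest on few counts. Barcodes just inside the neuron threshold, with 40 to 60 marker UMIs per 10000, made up 42.5% and 62.1% of neuron-like barcodes in knockout libraries, 38.9% and 12.2% in WT bilirubin libraries and 52.0% and 46.5% in vehicle libraries. Just outside it, with 30 to 40, lay 692 and 83, 610 and 80, and 1393 and 1165 barcodes.

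All 9 members were higher in neuron-like than in microglia-like barcodes of the same library. The fitted ratio was largest for Syt1, though Svop had the larger ratio in WT vehicle 2 and WT bilirubin 1. In neuron-like barcodes, Syt1 had 1960.4 and 952 CPM in knockout libraries, 1370.5 and 2502 in WT bilirubin libraries and 1135 and 1333 in vehicle libraries. In microglia-like barcodes, Syt1 had 304 and 187 CPM in knockout libraries, 187 and 77.4 in WT bilirubin libraries and 448 and 352 in vehicle libraries. Every library had more Syt1 CPM in its neuron-like barcodes. The fitted log2 ratio of neuron-like over microglia-like barcodes was 2.30 (SE 0.38, adjusted p = 0.000234) for Syt1, by edgeR's quasi-likelihood test within libraries. For Vamp2, the smallest of the 9, it was 0.49 (SE 0.18, adjusted p = 0.0343). The other members were Svop at 2.20, Snap25 at 1.59, Stx1a at 1.35, Syp at 1.23, Slc17a7 at 1.20, Sv2a at 1.05 and Cplx2 at 0.83. All 9 passed the threshold, an adjusted p under 0.05, while 27% of all genes tested were called higher in neuron-like barcodes. Against choroid plexus-like barcodes all 9 were again called higher, from 0.50 for Vamp2 to 3.26 for Svop, beside 34.4% of all genes.

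**Figure D1:**
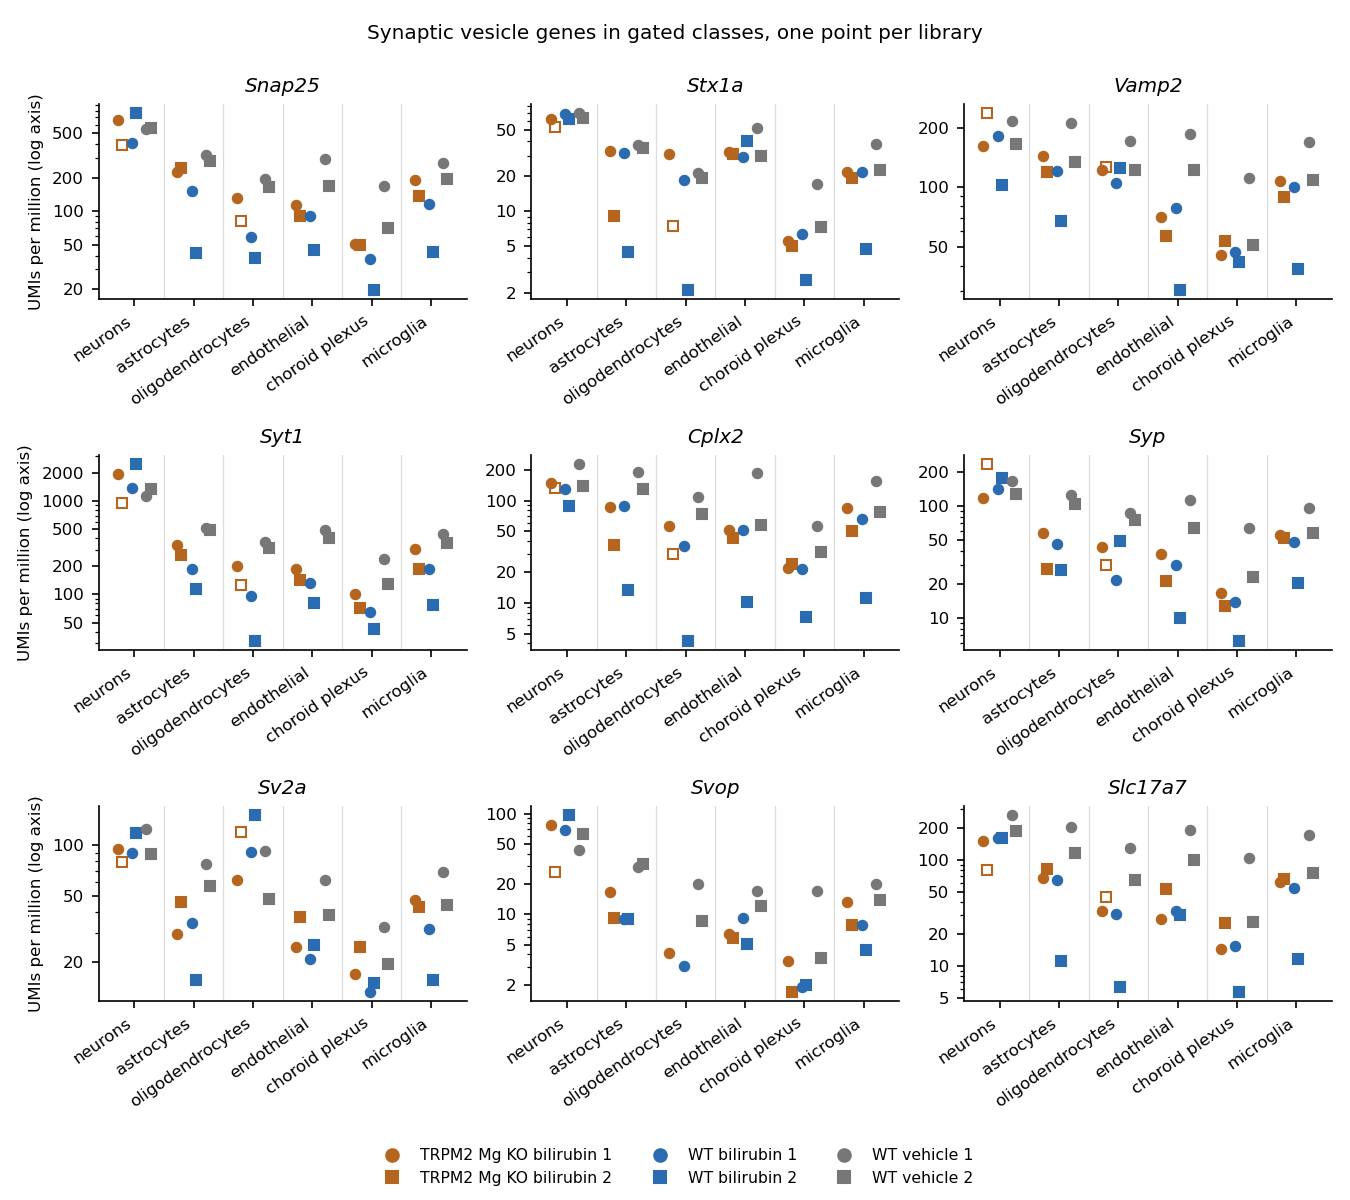
CPM of each member (UMIs per 1000000, log axis) in marker-gated neuron-like, astrocyte-like, oligodendrocyte-like, endothelial-like, choroid plexus-like and microglia-like barcodes, with 1 point per library (circle, library 1; square, library 2; orange, TRPM2 Mg KO bilirubin; blue, WT bilirubin; grey, WT vehicle; open, fewer than 50 cells). Libraries at 0 (Svop in oligodendrocyte-like barcodes of 2 libraries) are not drawn; each library's neuron-like point lies above its microglia-like point for every member.

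The same order held for the share of barcodes with at least 1 UMI, thinned to 1000 UMIs each. With thinning, Syt1 was seen in 77.7% and 77.8% of neuron-like barcodes in knockout libraries, 68.4% and 86.96% in WT bilirubin libraries and 66.5% and 71.2% in vehicle libraries. In microglia-like barcodes, which should lack the gene, the thinned shares were 28.2% and 18.6% in knockout libraries, 18.7% and 6.45% in WT bilirubin libraries and 35.7% and 29.5% in vehicle libraries. The share in microglia-like barcodes is not taken as expression, and its source was not tested. Without thinning, the Syt1 shares were 83.1% and 55.2%, 72.6% and 87.5%, and 64.4% and 75.5% in neuron-like barcodes, and 40.4% and 28.7%, 27.4% and 10.5%, and 44.8% and 45.9% in microglia-like barcodes, in the same order of groups. The median depth was 2066 and 1176, 1502 and 1059, and 1132 and 1359 UMIs in neuron-like barcodes and 1370.0 and 1363, 1345 and 1180.0, and 1225 and 1836 in microglia-like barcodes. Thinning left out 74 and 13 shallower neuron-like barcodes in knockout libraries, 48 and 303 in WT bilirubin libraries and 365 and 148 in vehicle libraries. In all 54 pairs of a member and a library, the thinned share was higher in neuron-like than in microglia-like barcodes. The closest pair was Slc17a7 in knockout library 2, at 8.7% against 8.3%.

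The make-up of the 9 also differed between these classes. Syt1 gave 57.1% of the members' UMIs in neuron-like barcodes of knockout library 1, 52.1% and 61.4% in WT bilirubin libraries, and 40.6% and 48.8% in vehicle libraries. In microglia-like barcodes its part was 34.4% and 28.7% in knockout libraries, 29.6% and 34.0% in WT bilirubin libraries and 31.1% and 37.2% in vehicle libraries, lower in each library that could be compared. Vamp2 showed the opposite order, at 4.7%, 6.9% and 2.5%, and 7.8% and 6.1% of the members' UMIs in neuron-like barcodes of the same libraries. In microglia-like barcodes Vamp2 made up 12.2% and 13.8% in knockout libraries, 15.8% and 17.0% in WT bilirubin libraries and 11.8% and 11.5% in vehicle libraries. No test was run on these shares.

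Across the classes with most cells, Syt1 ran, by its median over the 6 libraries, from 1352 CPM in neuron-like (lowest 952, highest 2502) through 301 in astrocyte-like (114 to 519), 246 in microglia-like (77.4 to 448), 164.1 in endothelial-like (80.5 to 489.6) and 163.7 in oligodendrocyte-like (31.7 to 366) to 146 in ependymal-like (77.9 to 376) and 86.3 in choroid plexus-like barcodes (42.8 to 239). Only the step from astrocyte-like to neuron-like barcodes in this order of Syt1 had no overlap between libraries. Sv2a had another order, with 92.6 CPM in neuron-like (79.3 to 125) and 92.1 in oligodendrocyte-like barcodes (47.4 to 152), which overlapped, and 43.2 in microglia-like (15.6 to 69.6) and 18.1 in choroid plexus-like barcodes (13.2 to 32.5).

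Other classes were set against microglia-like barcodes in the same way. In choroid plexus-like barcodes 8 members were lower, beside 45.3% of all genes, and Vamp2 was not called, at -0.29 (SE 0.14, adjusted p = 0.0713). In ependymal-like barcodes 6 were lower, beside 23.8% of all genes: Slc17a7, Snap25, Sv2a, Syp, Syt1 and Vamp2. In endothelial-like barcodes Cplx2, Snap25, Sv2a and Syp were lower, beside 19.9%, and Stx1a was higher, at 0.56 (SE 0.17, adjusted p = 0.0112) on the log2 scale, beside 18.9%. In oligodendrocyte-like barcodes Cplx2, Slc17a7, Snap25 and Syt1 were lower, beside 23.1%, and Sv2a was higher, at 1.17 (SE 0.33, adjusted p = 0.0108), beside 20.2%. Sv2a, a vesicle protein that is also the target of the antiepileptic drug levetiracetam, had 61.99 and 119 CPM in oligodendrocyte-like barcodes of knockout libraries, 91.5 and 152 in those of WT bilirubin libraries and 92.7 and 47.4 in those of vehicle libraries. Its microglia-like values were 47.2 and 42.5, 31.4 and 15.6, and 69.6 and 43.9 in the same order, lower in each library. In astrocyte-like barcodes no member was called in either direction, beside 39.3% of all genes.

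Within neuron-like barcodes, excitatory, inhibitory and striatal neuron-like barcodes were separated by further markers. Knockout library 2 held 8, 3 and 3 of these and was left out, so 5 libraries were compared. Slc17a7, the glutamate transporter, had 183 CPM in excitatory neuron-like barcodes of knockout library 1, 224 and 236 in those of WT bilirubin libraries and 314 and 221 in those of vehicle libraries. Its inhibitory neuron-like values were 71.7 in knockout library 1, 70.6 and 47.6 in WT bilirubin libraries and 287 and 162 in vehicle libraries. Each library had the higher value in its excitatory neuron-like barcodes, and the log2 ratio was 0.87 (SE 0.18, adjusted p = 0.000168). Snap25, at 0.49 (SE 0.12, adjusted p = 0.00257), and Syt1, at 0.47 (SE 0.11, adjusted p = 0.000592), were also called higher in excitatory neuron-like barcodes. These 3 of 9 stand beside 5.49% of all genes. Against striatal neuron-like barcodes only Slc17a7 was called, at 0.82 (SE 0.19, adjusted p = 0.000902), beside 3.58% of all genes. Between striatal and inhibitory neuron-like barcodes no member was called, beside 7.38%.

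**Figure D2:**
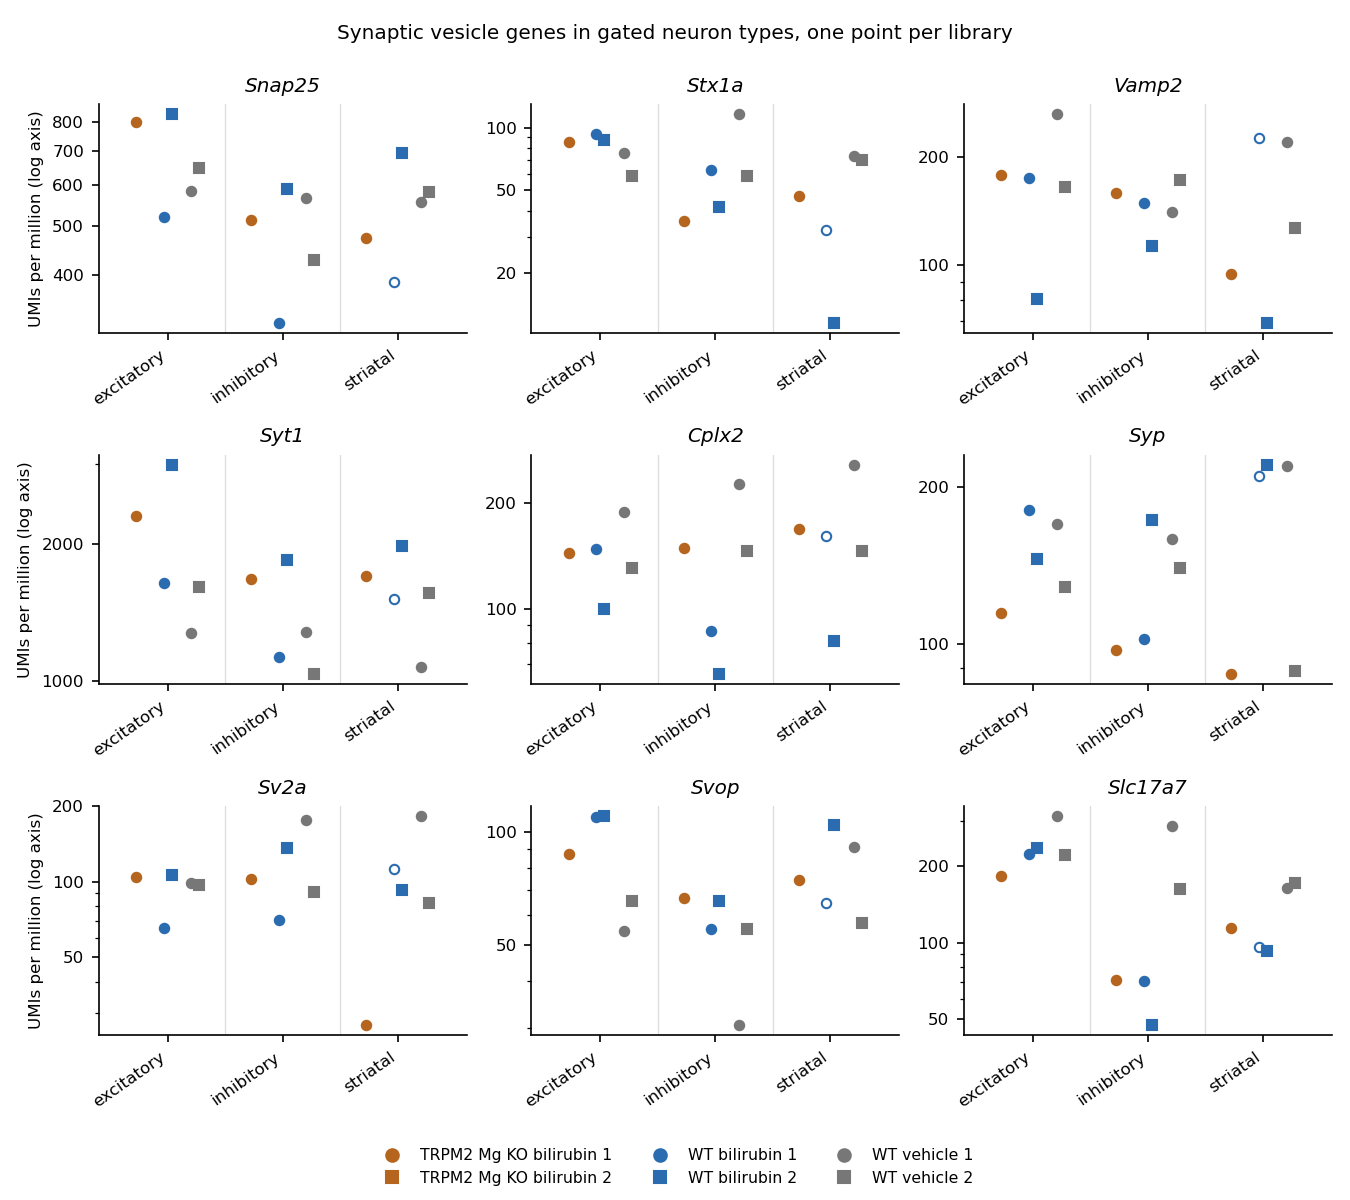
CPM of each member in excitatory, inhibitory and striatal neuron-like barcodes, with 1 point per library and symbols by group and library; classes with fewer than 20 cells in a library are not drawn, which leaves out TRPM2 Mg KO bilirubin 2. Slc17a7 is higher in excitatory than in inhibitory neuron-like barcodes in each of the 5 libraries.

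Under bilirubin, all 9 members had lower values in whole WT libraries than under vehicle, with no overlap between the groups, but none passed the test. Of all 19184 genes tested, 17.7% were lower without overlap. In a whole library, fewer cells of a type and less RNA per cell cannot be told apart. In vehicle libraries, neuron-like barcodes held 3361 and 3740 of the members' 39365 and 43877 UMIs. Barcodes that passed no gate held 20743 and 21610 of them, and microglia-like barcodes 10382 and 10640. In WT bilirubin libraries, neuron-like barcodes held 1513 and 3355 of 26759 and 10096, and barcodes that passed no gate 14261 and 3987. Microglia-like barcodes held 5078 and 570 there. Within neuron-like barcodes the members summed to 2628 and 4072 CPM in WT bilirubin libraries and 2794 and 2731 in vehicle libraries, with overlap. Syt1 had 171 and 228 CPM in WT bilirubin libraries, against 558 and 337 in WT vehicle libraries. Snap25 had 91.5 and 79.98 in WT bilirubin libraries, against 319 and 176 in vehicle libraries. For Snap25 the log2 fold change was -1.46 (SE 0.41, adjusted p = 0.364), by edgeR's quasi-likelihood test. Slc17a7, with 40 and 18.3 CPM under bilirubin and 192 and 65.4 under vehicle, had the lowest log2 fold change, -2.02 (SE 0.54, adjusted p = 0.364). The members' median log2 fold change was -1.18, against 0.046 over all genes. WT vehicle 1 had the highest value of each member. The background share of calls was 0.00521%, and 2150 of 19184 genes had an unadjusted p under 0.05. Under DESeq2, 2 members were called. Without the low-count filter 3 were called, and without WT vehicle 2, 1 was called. The share of neuron-like barcodes, 2.0% and 8.8% in WT bilirubin libraries and 6.0% and 4.7% in vehicle libraries, overlapped between the groups.

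Within neuron-like barcodes, the 9 members did not move together. Svop had 69.5 and 97.1 CPM in WT bilirubin libraries, against 43.2 and 62.8 in WT vehicle libraries. Syt1 had 1370.5 and 2502 in WT bilirubin libraries, against 1135 and 1333 in vehicle libraries. For both, the bilirubin values lay above the vehicle values without overlap, at log2 fold changes of 0.46 (SE 0.48, adjusted p = 0.948) for Svop and 0.44 (SE 0.77, adjusted p = 0.965) for Syt1. Cplx2 had 130.3 and 88.6 CPM under bilirubin and 229 and 139 under vehicle, at -0.94 (SE 0.54, adjusted p = 0.948). Slc17a7 had 162 and 160.2 under bilirubin and 265 and 188 under vehicle, at -0.69 (SE 0.56, adjusted p = 0.948). Their groups did not overlap either, with bilirubin lower. Of all genes, 23.2% were higher and 13.6% lower without overlap in neuron-like barcodes. For Snap25, the SNARE protein of the plasma membrane, the values were 413 and 764 under bilirubin and 544 and 562 under vehicle, and the bilirubin libraries lay on both sides of the vehicle libraries. Stx1a, its partner, had 67.7 and 61.9 CPM under bilirubin and 69.8 and 62.8 under vehicle. Vamp2 had 182 and 103 under bilirubin and 217 and 166 under vehicle. The groups of both overlapped. Sv2a had 90.3 and 118 under bilirubin and 125 and 89.1 under vehicle, and Syp had 142 and 178 under bilirubin and 167 and 127 under vehicle, also with overlap. No member was called, beside 0.0268% of all genes, and 534 of 11174 genes had an unadjusted p under 0.05. The members' median log2 fold change was -0.23, against 0.018 over all genes, and 7 of the 9 lay below 0, beside 48.6% of all genes. Without WT bilirubin 1, 1 member was called.

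In the 3 kinds of neuron-like barcodes no member was called between WT bilirubin and WT vehicle. The shares of all genes called were 0.0455% in excitatory, 0.0393% in inhibitory and 0% in striatal neuron-like barcodes, with 628, 283 and 163 genes at an unadjusted p under 0.05. Slc17a7 in inhibitory neuron-like barcodes came nearest, at an adjusted p of 0.067 by edgeR. Its values there were 70.6 and 47.6 CPM in WT bilirubin libraries and 287 and 162 in WT vehicle libraries. Slc17a7 was lower under bilirubin in microglia-like barcodes too, at 53.8 and 11.6 CPM against 171 and 74.7 under vehicle. The source of the Slc17a7 UMIs in inhibitory neuron-like barcodes was not tested.

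Members were called lower in WT bilirubin than in WT vehicle libraries in 4 non-neuronal classes. The median depth was 2460 and 1692 UMIs in endothelial-like barcodes under bilirubin and 1193.5 and 1622.5 under vehicle. In oligodendrocyte-like barcodes it was 4039 and 3079 under bilirubin and 2156.5 and 2571 under vehicle. In astrocyte-like barcodes it was 1461.5 and 1644 under bilirubin and 1071 and 1101 under vehicle. The part of depth in the calls was not tested. In endothelial-like barcodes 6 of the 8 tested members fell, beside 3.76% of all genes called lower. Syt1 had 131 and 80.5 CPM under bilirubin, against 489.6 and 404 under vehicle, on the log2 scale -2.12 (SE 0.37, adjusted p = 0.00126). Slc17a7 had 32.5 and 30.2 under bilirubin, against 189.6 and 99.9 under vehicle, at -2.26 (SE 0.40, adjusted p = 0.00159). Syp at -1.85, Snap25 at -1.70, Cplx2 at -1.60 and Vamp2 at -1.36 were the other calls. Stx1a, at -0.44 (SE 0.42, adjusted p = 0.67), and Sv2a, at -1.28 (SE 0.43, adjusted p = 0.0817), were not called, and Svop did not pass the filter on low counts. Without WT vehicle 1, 2 members were called. The 12 neuron markers, held low in these classes by the gate, moved the same way: they summed to 7.16 and 3.98 UMIs per 10000 in endothelial-like barcodes under bilirubin and to 14.0 and 11.6 under vehicle, with all 12 lower without overlap, as were 18.5% of all genes tested there. Their part in the members' result was not tested.

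In choroid plexus-like barcodes 5 of 9 members fell, beside 2.35% of all genes. Slc17a7 had 15.3 and 5.65 CPM under bilirubin, against 104 and 25.6 under vehicle, at -2.35 (SE 0.45, adjusted p = 0.00264). Snap25 was at -1.92, Syp at -1.85, Syt1 at -1.66 and Cplx2 at -1.45. WT vehicle 1 was the highest of the 4 libraries for each, and without it, or without WT bilirubin 2, no member was called. DESeq2 called 3 of the 9. WT vehicle 1 held 214 choroid plexus-like barcodes, at a median depth of 2257 UMIs, and WT vehicle 2 held 2479, at 5006. The WT bilirubin libraries held 1923 and 2233, at 6220 and 3571. The part of class size and depth in the calls was not tested. The neuron markers summed to 7.82 and 6.59 UMIs per 10000 under bilirubin and to 9.99 and 7.31 under vehicle in these barcodes, with 10 of 12 lower and 1 higher without overlap, beside 23% and 19.5% of all genes, and their part was not tested.

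In oligodendrocyte-like barcodes 4 of 8 tested members fell, beside 3.16% of all genes. Syt1 had 96.1 and 31.7 CPM under bilirubin, against 366 and 317 under vehicle, at -2.49 (SE 0.40, adjusted p = 0.00246). Slc17a7 was at -2.42, Cplx2 at -2.20 and Snap25 at -1.99. Sv2a, the member that was higher here than in microglia-like barcodes, had 91.5 and 152 CPM under bilirubin and 92.7 and 47.4 under vehicle, with overlapping groups and on the log2 scale 0.62 (SE 0.39, adjusted p = 0.446). Svop had 2 counts and 0 counts in WT bilirubin libraries, where 3 counts would be 6.34 CPM in the library at 0, and 15 and 4 counts in vehicle libraries. Without WT vehicle 1, 1 member was called. The neuron markers summed to 6.09 and 2.79 UMIs per 10000 under bilirubin and to 12.4 and 11.1 under vehicle, with 9 of 12 lower and 1 higher without overlap, beside 19.1% and 29.2% of all genes, and their part was not tested.

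In microglia-like barcodes, the class with most cells, all 9 members were lower under bilirubin without overlap, as were 19.6% of all genes, and none was called, beside 0.00632% of all genes. Syt1 had 187 and 77.4 CPM in WT bilirubin libraries, against 448 and 352 in WT vehicle libraries, at -1.72 (SE 0.43, adjusted p = 0.08). Snap25 had 116 and 43.1 under bilirubin, against 272 and 196 under vehicle. Across the 9, the log2 fold changes ran from -1.99 for Slc17a7 to -1.12 for Vamp2, with a median of -1.51, against 0.048 over all genes. An unadjusted p under 0.05 was reached by 2673 of 15835 genes. DESeq2 called 3 members, all 9 were called without the filter on low counts, and without WT bilirubin 1, which left WT bilirubin 2 as the lone library of its group, all 9 were called. The neuron markers summed to 8.93 and 3.84 UMIs per 10000 under bilirubin and to 13.8 and 11.98 under vehicle, with 9 of 12 lower without overlap, beside the 19.6% of all genes. Their part in the result was not tested. In astrocyte-like barcodes 1 of 9 members fell, beside 0.185% of all genes: Syt1 had 186 and 114 CPM under bilirubin, against 519 and 487 under vehicle, at -1.87 (SE 0.38, adjusted p = 0.0474). That call was lost without WT vehicle 1, without either knockout library, with called doublets kept and with a stricter gate, while 2 members were called without WT vehicle 2, 4 without WT bilirubin 2 and 9 without WT bilirubin 1. The neuron markers summed to 12.5 and 8.69 UMIs per 10000 in astrocyte-like barcodes under bilirubin and to 16.2 and 14.8 under vehicle, and their part was not tested. In ependymal-like barcodes none of 7 tested members was called by edgeR, beside 0.0672% of all genes, and 519 genes had an unadjusted p under 0.05.

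**Figure D3:**
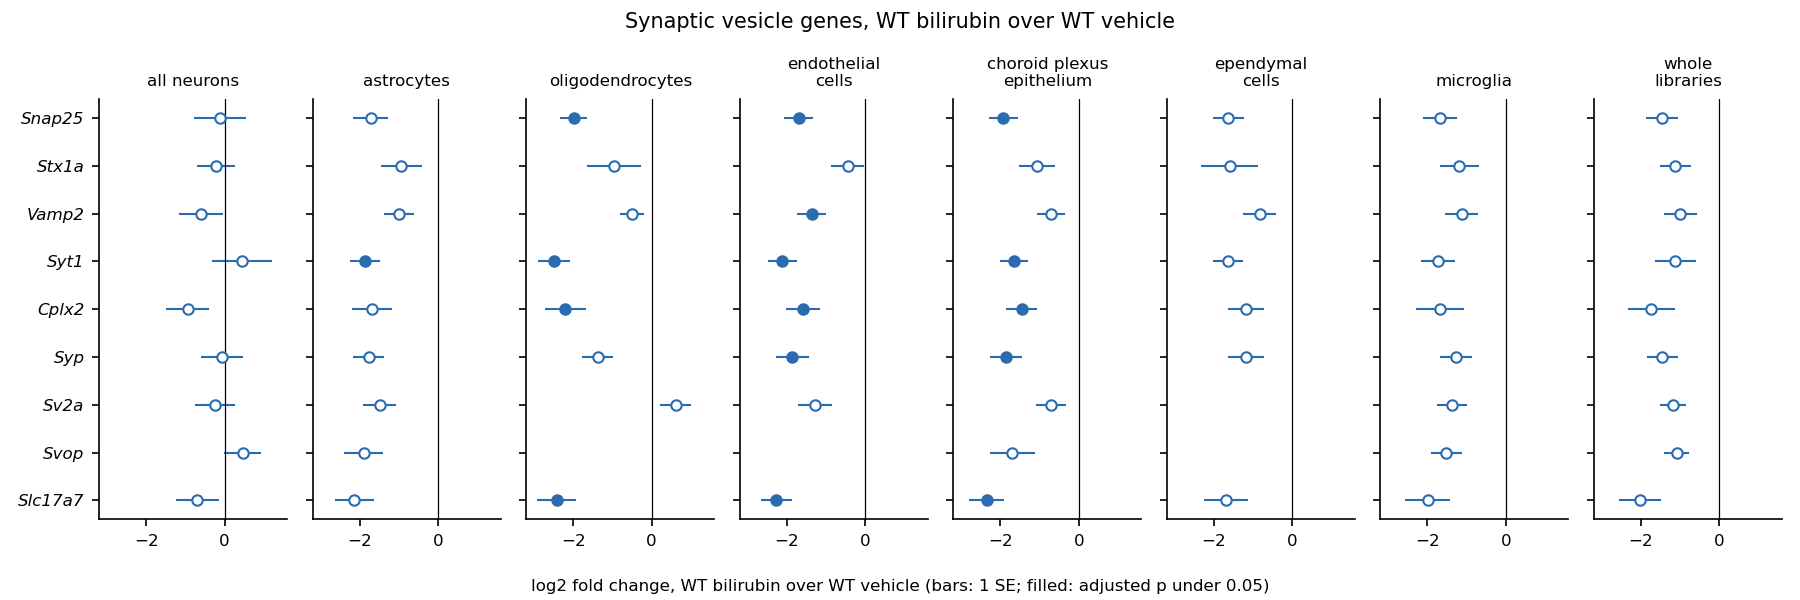
Log2 fold change of each member in WT bilirubin over WT vehicle libraries, with bars of 1 SE, by class of barcode; filled symbols have an adjusted p under 0.05. In neuron-like barcodes 7 of 9 members lie below 0, beside 48.6% of all genes, and Svop and Syt1 lie above it. In endothelial-like barcodes all 8 tested members lie below 0, beside 48.7% of all genes.

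The difference between neuron-like and other barcodes was itself tested. The Syt1 level in neuron-like over microglia-like barcodes was 7.31 and 32.3 times in WT bilirubin libraries, against 2.53 and 3.79 times in WT vehicle libraries. The difference of log2 ratios was 2.31 (SE 0.50, adjusted p = 0.00182). For Svop the ratios were 8.86 and 22.1 under bilirubin and 2.18 and 4.496 under vehicle, a difference of 2.01 (SE 0.46, adjusted p = 0.00272). For Snap25 they were 3.57 and 17.7 under bilirubin and 2.001 and 2.87 under vehicle, a difference of 1.72 (SE 0.50, adjusted p = 0.0226). For Slc17a7 they were 3.003 and 13.8 and 1.55 and 2.52 in the same order, a difference of 1.59 (SE 0.48, adjusted p = 0.0325). In these 4, WT bilirubin 2 lay far above the others, and it had the lowest value of each member in microglia-like barcodes. The 4 calls of 9 stand beside 5.33% of all genes called in that direction. Without either vehicle library or either knockout library no member was called, without WT bilirubin 2 there were 2 calls, and without WT bilirubin 1 all 9 were called. For Vamp2 the ratios were 1.83 and 2.67 under bilirubin and 1.27 and 1.53 under vehicle, without a call.

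**Figure D4:**
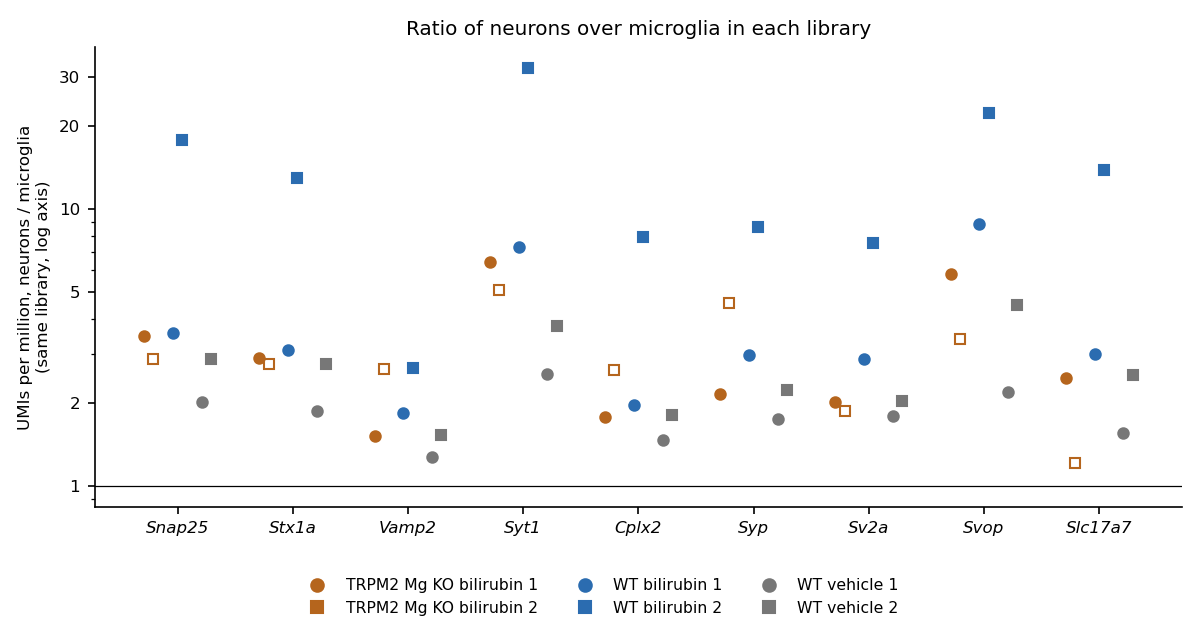
Ratio of each member's CPM in neuron-like over microglia-like barcodes, with 1 point per library (orange, TRPM2 Mg KO bilirubin; blue, WT bilirubin; grey, WT vehicle; open, fewer than 50 neuron-like cells). For Syt1, WT bilirubin libraries sit at 7.31 and 32.3 and WT vehicle libraries at 2.53 and 3.79.

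Set against choroid plexus-like barcodes, 5 of 9 members had a larger neuron-like ratio under bilirubin than under vehicle, beside 2.79% of all genes. The Syt1 ratios were 20.96 and 58.4 in WT bilirubin libraries and 4.74 and 10.3 in vehicle libraries, a log2 difference of 2.13 (SE 0.52, adjusted p = 0.0061). Syp was at 1.95, Svop at 2.12, Snap25 at 1.83 and Slc17a7 at 1.75. No member was called without either vehicle library or without WT bilirubin 2, and 2 were called without either knockout library. The neuron-like values enter both ratios, so the 2 sets of calls are not separate evidence.

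Under bilirubin, the comparison of knockout with WT called none of the 9 members, in whole libraries, neuron-like barcodes or the 6 non-neuronal classes tested. In whole libraries Syt1 had 307 and 94.8 CPM in TRPM2 Mg KO libraries, against 171 and 228 in WT libraries, and the groups overlapped. Slc17a7 had 43.99 and 56.6 in knockout libraries, against 40 and 18.3 in WT libraries, with no overlap and on the log2 scale 0.88 (SE 0.53, adjusted p = 1). The background was 0.00521%, and 701 genes had an unadjusted p under 0.05. The share of all genes without overlap between knockout and WT libraries was not counted, in whole libraries or in any class. In neuron-like barcodes Snap25 had 657 and 396 CPM in knockout libraries, against 413 and 764 in WT libraries, at -0.19 (SE 0.67, adjusted p = 1). Syt1 was at -0.46 (SE 0.77, adjusted p = 1). Knockout library 2 rests there on 36 Syt1 and 15 Snap25 counts, and on 1 Svop count, while 3 counts would be 79.3 CPM. Stx1a had 62.4 and 52.9 CPM in knockout libraries, against 67.7 and 61.9 in WT libraries. Vamp2 had 162 and 238 in knockout libraries, against 182 and 103 in WT libraries. The groups of Stx1a and of Vamp2 overlapped. Cplx2 had 149 and 132 in knockout libraries, against 130.3 and 88.6 in WT libraries, both knockout values above both WT values. Of the vesicle membrane proteins, Syp had 117 and 238 in knockout libraries, against 142 and 178 in WT libraries, and Sv2a had 94.9 and 79.3 in knockout libraries, against 90.3 and 118 in WT libraries. Both overlapped. Slc17a7 had 151 and 79.3 in knockout libraries, below 162 and 160.2 in WT libraries, with 3 counts in knockout library 2. The background in neuron-like barcodes was 0.0268%, and 115 genes had an unadjusted p under 0.05.

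In microglia-like barcodes the median log2 fold change of the 9 was 0.74 in knockout over WT libraries under bilirubin, against -0.041 over all genes, beside 0.00632% of all genes called and 533 genes at an unadjusted p under 0.05. Syt1 had 304 and 187 CPM in knockout libraries, against 187 and 77.4 in WT libraries, with 0.86 (SE 0.42, adjusted p = 1). The neuron markers summed to 10.4 and 8.22 UMIs per 10000 in knockout libraries and to 8.93 and 3.84 in WT libraries, with overlap, and their part was not tested. For Syt1, WT bilirubin 1 lay at the lower of the knockout libraries and WT bilirubin 2 far below. Without WT bilirubin 1, 8 members were called. Snap25 had 189 and 138 CPM in knockout libraries, against 116 and 43.1 in WT libraries. In astrocyte-like barcodes 4 members were called without WT bilirubin 1, in oligodendrocyte-like and ependymal-like barcodes leaving out 1 library gave at most 1 call, and with all libraries no member was called in astrocyte-like (0% of all genes, 434 at an unadjusted p under 0.05), choroid plexus-like (0.0758%, 449), endothelial-like (0.0771%, 216), oligodendrocyte-like (0%, 434) or ependymal-like barcodes (0%, 131). The neuron-like ratios over microglia-like and choroid plexus-like barcodes did not differ past the threshold either, beside 0% of all genes for both, with 561 and 230 genes at an unadjusted p under 0.05. Against WT vehicle, which differs in genotype and treatment, 3 of 8 members were lower in endothelial-like barcodes of the knockout libraries, beside 0.976% of all genes. Slc17a7 was at -2.04 (SE 0.38, adjusted p = 0.0124), Syt1 at -1.50 and Syp at -1.51. No member was called there without WT vehicle 1 or knockout library 1, 1 was called without knockout library 2, and 6 were called without any one of the other 3 libraries. The neuron markers summed to 7.55 and 6.43 UMIs per 10000 in endothelial-like barcodes of knockout libraries and to 14.0 and 11.6 in those of vehicle libraries, and their part was not tested. These calls share the vehicle libraries with the comparison of WT bilirubin.

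Other genes were described by 9 lists, of the release machinery and, for comparison, of postsynaptic and neuronal cytoskeleton genes. None of the lists holds a gene called between WT bilirubin and WT vehicle in whole libraries, neuron-like or microglia-like barcodes. The shares of all genes called there were 0.00521%, 0.0268% and 0.00632%. Over all genes in whole libraries, 46% lay below 0, with a median of 0.046. In whole libraries, 24 of 26 active zone genes lay below 0, with a median log2 fold change of -0.76. Bsn, a scaffold of the active zone, was at -1.48, and Rab3c, a small GTPase of vesicles, at -1.45. Of 15 calcium sensor genes 13 lay below 0, with a median of -1.07, and the synaptotagmins Syt4 and Syt7 were at -1.42 and -1.33. Below 0 also lay 13 of 23 further SNARE-related genes, with a median of -0.08. Cplx1, the gene of complexin 1, had 26.3 and 10.9 CPM in WT bilirubin libraries, against 114.9 and 46.9 in WT vehicle libraries, and its log2 fold change was -2.01 (SE 0.50, adjusted p = 0.36). All 16 postsynaptic genes lay below 0, with a median of -1.13, and Nrgn, a calmodulin-binding protein of dendrites, was at -1.95, with the scaffold Shank1 at -1.70. Of 15 genes of the vesicle proton pump only 4 lay below 0, with a median of 0.19. Atp6ap2, an accessory subunit of that pump, had 166 and 150 CPM under bilirubin, against 59.1 and 87.1 under vehicle, at 1.11 (SE 0.44, adjusted p = 0.40), while Atp6v1g2, the brain form of a pump subunit, was at -0.90. Of 18 vesicle membrane genes 15 lay below 0, with a median of -0.78. Among these Syn1, a synapsin that tethers vesicles, had 25.4 and 16.0 CPM under bilirubin, against 100.3 and 37.9 under vehicle, at -1.63, and Sv2b, also an excitatory marker of the gate, was at -1.16. Of 8 transporters 6 lay below 0, with a median of -0.64, among them the zinc transporter Slc30a3 at -1.54 and the GABA transporter Slc32a1 at -1.68. Of 24 vesicle retrieval genes 18 lay below 0, with a median of -0.21, and the dynamin Dnm1 was at -1.60 and the adaptor Ap2a2 at -0.98. Of 15 neuronal cytoskeleton genes 13 lay below 0, with a median of -1.12. Nefm, a neurofilament gene, had 6.35 and 2.86 CPM under bilirubin, against 28.9 and 11.6 under vehicle, at -2.002, and Basp1 was at -1.12. The cytoskeleton list shares 5 genes with the neuron markers.

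In neuron-like barcodes the same lists had medians from -0.30 for the proton pump and the cytoskeleton to 0.32 for the active zone. Over all genes 48.6% lay below 0, with a median of 0.018. Below 0 lay 11 of 15 pump, 11 of 15 cytoskeleton, 16 of 24 retrieval, 9 of 16 postsynaptic and 8 of 15 vesicle membrane genes. The counts were 2 of 4 for transporters, 9 of 22 for SNARE-related genes, 5 of 14 for calcium sensors and 9 of 25 for the active zone. In microglia-like barcodes 46.3% of all genes lay below 0, with a median of 0.048. The lists' medians there were -1.27 for the active zone, with 24 of 26 below 0, -1.18 for the calcium sensors, with all 15 below 0, and -1.50 for the postsynaptic list, with all 16 below 0. The proton pump was at 0.03 there, with 6 of 15 below 0. No test was run on any list.

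Genes whose levels followed the 9 members most closely were named by Pearson's r with the members' mean over 71 sums by class and library, which share libraries and depth. Among 7613 genes the first 5 were Camk2a at 0.947, Prkar1b at 0.947, Kif5c at 0.946, Nrgn at 0.942 and Arpp21 at 0.937. Camk2a is a kinase of excitatory synapses and one of the excitatory markers of the gate. It had a mean of 637 CPM in the excitatory, inhibitory and striatal gates and 231 in the other classes. Those other classes include neuron-like barcodes of no subtype, so their means are not non-neuronal levels. Arpp21, a phosphoprotein enriched in the striatum, had 561 in the same 3 gates and 131 in the same other classes.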

How the data were processed

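Per the labels, mouse brain cells were profiled by 10x 3' v3.1 sequencing in 6 libraries, 2 for each group. The deposited values are raw UMI counts per gene and barcode. Cell Ranger 8.0.0 and Scanpy 1.9.6 appear in the submitters' processing notes, with GRCm39 and mm10 as builds, while the matrix headers name Cell Ranger 9.0.1. The gene IDs were used as deposited, and no coordinate was taken from the counts.

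A barcode was kept if it had 500 or more UMIs and 300 or more genes, with a mitochondrial share of no more than 15%. Doublet scores came from Scrublet in scanpy 1.11.5, and the top share at a rate of 0.8% per 1000 barcodes was removed in each library (14379 in all), because the automatic threshold gave shares that differed widely between libraries. Libraries held 24165563 to 63402551 UMIs. Neuron-like barcodes had at least 3 of 12 neuron markers and at least 40 marker UMIs per 10000. The fraction of the neuron marker list detected was also larger than that of any non-neuronal list compared, whatever the UMI sums. The neuroblast and erythroid lists were not compared. Subtypes of neuron-like barcodes needed at least 2 markers and more than any other subtype. Other classes needed at least 3 markers, a detected fraction 1.5 times that of the next class and fewer than 40 neuron marker UMIs per 10000. These thresholds were set after marker detection, though not member levels, had been seen.

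Raw counts were summed per library and class, and tested with edgeR 4.0.16 (quasi-likelihood, TMM, filterByExpr) in R 4.3.3. All libraries with at least 20 cells entered 1 fit per class, and p-values were adjusted by Benjamini-Hochberg over all genes tested. Classes were compared within libraries, with library as a term. Levels are CPM, the UMIs per 1000000 of the class sum, and are not divided by gene length, since the 3' tags do not scale with it. DESeq2 1.42.0 was an alternative, beside other scaling, filters, gates, doublet treatment, a replicate block and each library left out. On counts simulated for WT bilirubin against WT vehicle, 4-fold changes were recovered for 57% of changed genes in whole libraries (19184 genes), 44% in neuron-like (11174) and 68% in microglia-like barcodes (15835), and 2-fold changes for 2%, 5% and 9%.

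The members and gene lists were chosen with earlier results of these data known. The text names all 9 members, the 2 genes of each list with the smallest p in whole libraries (except 1 that is not reported here), and the 5 genes most correlated with the members, with at least 20 CPM in neuron gates. The planned tests of neuron subtypes over all 6 libraries could not be run, because TRPM2 Mg KO bilirubin 2 held too few cells, so those tests used 5 libraries. The tests of all neuron-like barcodes, of the non-neuronal classes other than microglia-like barcodes, and their alternatives were added after the data had been seen. The tests between classes and of differences of their ratios were not among the planned tests either. Floors of 3 counts cover counting error only.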

Additional observations from a re-analysis of the deposited data

Results flagged for a closer look

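The ratio of neuron-like over microglia-like barcodes was larger in WT bilirubin than in WT vehicle libraries for 4 members, by a test of the difference itself in edgeR (library and class as terms). The differences of log2 ratios, WT bilirubin minus WT vehicle, were 2.31 for Syt1, 2.01 for Svop, 1.72 for Snap25 and 1.59 for Slc17a7, beside 5.33% of all genes called in that direction. Leaving out either vehicle library or either knockout library left no call, without WT bilirubin 2 there were 2, and without WT bilirubin 1 there were 9. Using only the 4 libraries of the comparison also left none. In neuron-like barcodes Syt1 and Svop were higher under bilirubin without overlap, Snap25 overlapped, and Slc17a7 was lower, at 162 and 160.2 CPM against 265 and 188. In microglia-like barcodes all 4 were lower under bilirubin without overlap, Slc17a7 at 53.8 and 11.6 CPM against 171 and 74.7. A larger ratio is thus not by itself a higher level in neuron-like barcodes.

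For neuron-like over choroid plexus-like barcodes the same difference was called for 5 members: 2.13 for Syt1, 1.95 for Syp, 1.83 for Snap25, 2.12 for Svop and 1.75 for Slc17a7, beside 2.79% of all genes. Leaving out either vehicle library or WT bilirubin 2 left no call, and leaving out either knockout library left 2. The neuron markers of the gate differed too: in neuron-like barcodes they summed to 79.0 and 103.5 UMIs per 10000 in WT bilirubin libraries and to 66.1 and 67.7 in vehicle libraries, and in microglia-like barcodes to 8.93 and 3.84 in WT bilirubin libraries and to 13.8 and 11.98 in vehicle libraries. In choroid plexus-like barcodes the sums overlapped between groups, at 7.82 and 6.59 in WT bilirubin libraries and 9.99 and 7.31 in vehicle libraries. Their part in the differences was not tested.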

How the results depend on the processing

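Fits that left a group with 1 library assumed that it varies like the others. Of 723 values for single members with a library left out, 574 kept their direction and side of the threshold, 57 newly passed it, 72 lost it and 20 turned round; of 821 under other settings the numbers were 736, 54, 26 and 5. TRPM2 Mg KO bilirubin 2 held 29 neuron-like barcodes, so counts there were few. The stricter cell filter gave no value for neuron-like barcodes.

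For WT bilirubin against WT vehicle, leaving out libraries gave 0 to 1 member calls in whole libraries (0 with all), 0 to 1 in neuron-like (0), 0 to 9 in microglia-like (0), 0 to 1 in excitatory (0), 0 to 0 in inhibitory and striatal (0), 2 to 6 in endothelial-like (6), 0 to 5 in choroid plexus-like (5), 1 to 4 in oligodendrocyte-like (4), 0 to 9 in astrocyte-like (1) and 0 to 3 in ependymal-like barcodes (0). For knockout against WT under bilirubin the ranges were 0 to 8 in microglia-like, 0 to 4 in astrocyte-like, 0 to 1 in oligodendrocyte-like and ependymal-like barcodes and 0 to 0 elsewhere. DESeq2 called 2 members in whole libraries, 3 in microglia-like and 3 in choroid plexus-like barcodes. Without the low-count filter there were 3 in whole libraries, 9 in microglia-like, 7 in astrocyte-like and 2 in ependymal-like barcodes. In astrocyte-like barcodes, no member was called (0) with only the 4 compared libraries, with doublets kept or with the stricter gate, and 4 with the stricter cell filter. For knockout under bilirubin against WT vehicle in endothelial-like barcodes (3 calls with all), leaving out libraries gave 0 to 6, DESeq2 and no low-count filter 1 each, and only the 4 compared libraries 6. The differences of neuron-like ratios gave 0 to 9 calls over microglia-like barcodes (4 with all) and 0 to 5 over choroid plexus-like barcodes (5). A gate of 60 marker UMIs per 10000 gave 2 and 3, and only 4 libraries gave 0 over microglia-like barcodes.

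Same-numbered libraries were not paired by the labels, and their deviations correlated at -0.186 to 0.042 in whole libraries and -0.224 to 0.169 in neuron-like barcodes. With the replicate block, 8 members were called in microglia-like and 7 in astrocyte-like barcodes for WT bilirubin against WT vehicle, 5 in endothelial-like barcodes for knockout under bilirubin against WT vehicle, and Syt1 in whole libraries was at -0.10 for knockout against WT under bilirubin.

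These log2 values changed sign when libraries were left out. For knockout against WT under bilirubin, whole libraries gave -0.82 to 0.56 for Syt1, -0.19 to 0.40 for Svop and -0.032 to 1.84 for Cplx2. Neuron-like barcodes gave -0.81 to 0.25 for Snap25, -1.26 to 0.056 for Syt1, -0.43 to 0.31 for Syp, -0.55 to 0.061 for Stx1a and -0.21 to 0.81 for Vamp2. Microglia-like barcodes gave -0.13 to 2.11 for Stx1a, -0.051 to 1.36 for Vamp2 and -0.0029 to 2.62 for Cplx2. For WT bilirubin against WT vehicle, neuron-like barcodes gave -0.50 to 0.18 for Snap25, -0.29 to 0.17 for Syp and -0.49 to 0.053 for Sv2a, and ependymal-like barcodes -1.52 to 0.067 for Vamp2 and -1.80 to 0.27 for Cplx2. Syp in neuron-like barcodes was at 0.0016 with median-of-ratios scaling, 0.00099 with DESeq2 and 0.055 with the stricter gate. The difference of neuron-like over choroid plexus-like ratios of Vamp2 ran from -0.29 to 0.35 and was -0.016 with a gate of 60. The cause of these shifts was not tested.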
